A study of Homo sapiens with 4 samples.

Results

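Protocadherins are the largest family within the cadherin superfamily of calcium-dependent adhesion proteins, and they were followed here as the protein-coding genes whose symbol in the deposited table starts with PCDH. Of 73 such rows, 4 antisense transcripts and 6 pseudogenes were left out, which gave 63 genes of 57905 identifiers in the table. The 51 clustered genes comprised 15 PCDHA, 15 PCDHB and 21 PCDHG genes, which lie in arrays on chromosome 5, and the other 12 genes were nonclustered. PCDHB16, PCDHGB5 and PCDH20 were not analysed here.

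Polyadenylated RNA was sequenced from cells labelled MG63, a human osteosarcoma line. The cells carried no other labelled modification and were transfected either with control siRNA or with siRNA to the transcription factor KLF11, then cultured for 48 hours, with 2 libraries in each group. The labels do not give the siRNA sequences or say that the replicates were separate cultures, and each p-value therefore covers only the scatter of these 4 libraries, which may be technical. Values are FPKM, fragments scaled to transcript length and library size, so levels can be compared between genes, and the read depth behind them is unknown.

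KLF11 itself was at 12.3 and 12.4 FPKM in the control libraries and at 5.49 and 6.74 FPKM in the KLF11 siRNA libraries, so the knockdown was partial (log2 change -0.92, SE 0.139, limma adjusted p = 0.00951). The cell type label was checked against osteoblast and mesenchymal markers. VIM, SPARC and COL1A2 were above 100 FPKM in every library, whereas RUNX2 was at most 0.65 FPKM, SP7 at most 0.04 FPKM and IBSP was listed at 0 in all 4 libraries. ALPL, an enzyme of mineralising osteoblasts that pluripotent cells also express, was at 79.2 to 106 FPKM. POU5F1, a pluripotency factor, was at 177 to 1364 FPKM and CER1, an early endoderm gene, at 958 to 4430 FPKM, so these values go against the label and the libraries are called by their siRNA here. Markers of other cell states differed between the groups. The osteoblast and mesenchymal list summed to 1071 and 1016 FPKM in control and to 1879 and 1875 FPKM with KLF11 siRNA, and 3 of its 7 tested genes rose and 1 fell. The summed FPKM of 8 pluripotency markers was 1440.3 and 1434 in control and 2728 and 2279 in KLF11 siRNA libraries, and that of 7 early endoderm markers was 4891 and 4862 against 1019 and 2742, with the KLF11 siRNA libraries far apart from each other. That of 10 epithelial markers was 2189 and 2015 against 760.2 and 1039, and that of 12 neural markers 224 and 205 against 103 and 109.9. Of the tested genes in these lists, 5 pluripotency markers rose and 2 fell of 8, 0 rose and 5 fell of 7 endoderm markers, 0 rose and 9 fell of 10 epithelial markers, and 2 rose and 4 fell of 8 neural markers. These marker counts stand beside 13.5% of all genes tested that rose and 21.7% that fell. Most of the rise in the pluripotency sum came from POU5F1, whose group mean went from 181 to 1216 FPKM. Most of that in the osteoblast and mesenchymal sum came from VIM, whose group mean went from 138 to 804 FPKM. CER1 made up most of the early endoderm sum (group means 4418 and 1766 FPKM) and was not called (limma adjusted p = 0.0543). TUBB3 made up most of the neural sum (group means 166 and 87.3 FPKM). These sums therefore do not stand for their whole lists. The part of these marker changes in the protocadherin values was not tested.

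Each clustered PCDHA or PCDHG gene is a variable exon with its own promoter, encoding the extracellular, transmembrane and near-membrane parts of the protein, spliced to short constant exons at the end of the array that encode a shared cytoplasmic tail. PCDHB genes have no constant exons. The last genes of the PCDHA and PCDHG arrays are called C types, and in neurons they are known to be expressed more uniformly than the others, whose promoters are chosen more or less at random in each cell with the help of the insulator protein CTCF and cohesin. Nonclustered protocadherins are single genes. They include the delta 1 group, with PCDH1, PCDH7, PCDH9 and PCDH11X, and the delta 2 group, with PCDH8, PCDH10, PCDH17, PCDH18 and PCDH19, which have longer tails and take part in cell adhesion, migration and the wiring of the brain.

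The start-site sequences are shown because the clustered genes are told apart by their own promoters. RefSeq windows on build GRCh38.p14, from 250 bases before to 50 bases after the first transcribed base, were found for 56 of the 63 genes. No window was matched for PCDH10, PCDHA3, PCDHA13, PCDHB6, PCDHB11, PCDHGA12 and PCDHGC5. Most clustered promoters carry a conserved sequence element with the core CGCT. These windows lie on the plus strand of chromosome 5, and the capitals mark a 7-letter match that contains the core.
PCDHA6 (chr5:140827890-140827936): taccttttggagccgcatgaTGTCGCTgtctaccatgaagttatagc
PCDHA10 (chr5:140855834-140855880): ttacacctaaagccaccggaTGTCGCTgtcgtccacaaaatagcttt
PCDHB2 (chr5:141094537-141094583): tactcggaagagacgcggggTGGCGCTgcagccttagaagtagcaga
PCDHB15 (chr5:141245307-141245353): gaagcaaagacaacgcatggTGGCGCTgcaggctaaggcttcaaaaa
PCDHGA10 (chr5:141412926-141412972): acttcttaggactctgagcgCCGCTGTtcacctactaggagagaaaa
PCDHGC3 (chr5:141475875-141475921): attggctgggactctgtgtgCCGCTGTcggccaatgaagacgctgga
The pair PCDHB2 and PCDHB15 has the same match, as has the pair PCDHA6 and PCDHA10, and the matches begin 41 to 71 bases before the first transcribed base. The whole windows of the C types PCDHAC2, PCDHAC1 and PCDHGC4, which had the largest ratios between the groups among clustered genes with a mean above 0.9 FPKM, are given next, with every CGCT of the plus strand in capitals.
PCDHAC2 (chr5:140966226-140966525): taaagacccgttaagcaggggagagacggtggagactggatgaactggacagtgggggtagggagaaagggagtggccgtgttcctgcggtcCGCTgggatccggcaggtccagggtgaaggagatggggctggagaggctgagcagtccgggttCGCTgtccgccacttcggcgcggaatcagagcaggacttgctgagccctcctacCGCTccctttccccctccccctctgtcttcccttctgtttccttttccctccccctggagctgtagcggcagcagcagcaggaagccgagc
PCDHAC1 (chr5:140926049-140926348): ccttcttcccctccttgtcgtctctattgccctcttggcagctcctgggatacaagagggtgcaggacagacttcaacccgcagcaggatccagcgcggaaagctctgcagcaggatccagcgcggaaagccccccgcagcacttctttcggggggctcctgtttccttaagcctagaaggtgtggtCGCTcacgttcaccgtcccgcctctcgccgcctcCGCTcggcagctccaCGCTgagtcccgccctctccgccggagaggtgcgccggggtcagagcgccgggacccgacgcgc
PCDHGC4 (chr5:141484780-141485079): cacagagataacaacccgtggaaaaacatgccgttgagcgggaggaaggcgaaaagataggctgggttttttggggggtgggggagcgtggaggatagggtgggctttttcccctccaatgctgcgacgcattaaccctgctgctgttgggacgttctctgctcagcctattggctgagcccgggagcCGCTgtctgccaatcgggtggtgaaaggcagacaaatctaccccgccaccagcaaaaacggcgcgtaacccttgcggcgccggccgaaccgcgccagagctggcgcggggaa
PCDHAC2 and PCDHAC1 hold CGCT 3 times each on this strand and none of the 7-letter matches, and PCDHGC4 holds it once, within CCGCTGT.

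The clustered and nonclustered windows differed in letters. The 3 matches searched were TGTCGCT, its variant for PCDHB genes TGGCGCT and the string CCGCTGT, on both strands, which overlap at the core and were chosen after these windows had been read. At least 1 of them occurred in 35 of 45 clustered windows (77.8%), in 1 of 11 nonclustered windows, and in 9.28% of the 27305 windows of all genes. TGTCGCT was found in 10 of 13 PCDHA windows, TGGCGCT in 12 of 13 PCDHB windows and CCGCTGT in 10 of 19 PCDHG windows. Of the 4 C types with a window, 2 held a match. The GC box GGGCGG, a sequence of the kind bound by SP and KLF factors, occurred on either strand in 1 of 45 clustered windows (that of PCDHAC1), in 6 of 11 nonclustered windows and in 44.5% of all windows. CG dinucleotides numbered 15 to 27 in the C type windows (median 20.5) and 2 to 16 in the other clustered windows (median 7), against a median of 13 over all genes. The core alone was found in 97.8% of clustered windows, 90.9% of nonclustered windows and 69.3% of all windows. The core marked in the printed C type windows is therefore not distinctive by itself. A match is a description of letters and not a bound site.

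**Figure D1:**
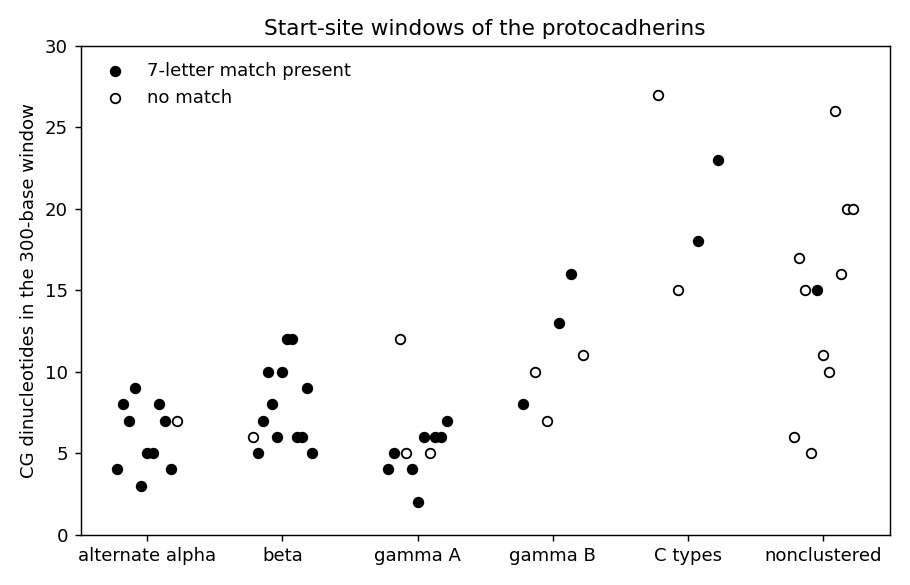
Number of CG dinucleotides (vertical axis) in the 300-base start-site window of each protocadherin with a RefSeq window, by class, 1 point per gene, filled where at least 1 of the 3 matches occurs on either strand. The 4 C types hold 15 to 27 CG dinucleotides, while the other clustered genes hold 2 to 16.

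The family was expressed at very unequal levels. PCDH10 had the highest level, with a mean of 106 FPKM over the 4 libraries, followed by PCDH1 (25.5 FPKM), PCDH7 (15.3 FPKM) and PCDHB2 (11.0025 FPKM). Of the 63 genes, 42 had a mean below 1 FPKM and 7 a mean below 0.1 FPKM. The clustered genes ran from 0.0225 to 11.0025 FPKM with a median of 0.475 FPKM, and the nonclustered from 0.0875 to 106 FPKM with a median of 0.921 FPKM. The summed FPKM of the clustered genes was 66.4 and 66.1 in control and 87.6 and 83.5 in KLF11 siRNA libraries, and that of the nonclustered genes was 147 and 139 in control and 168 and 161 in KLF11 siRNA libraries. PCDH10 made up most of the nonclustered sum, and without it the other 11 genes summed to 57.5 and 52.6 FPKM under control siRNA and 36.1 and 45.3 FPKM under KLF11 siRNA. Thus the clustered sum was higher in both KLF11 siRNA libraries, and the nonclustered sum was higher only with PCDH10 included. In bulk RNA, more cells expressing a gene and more RNA per cell cannot be told apart.

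**Figure D2:**
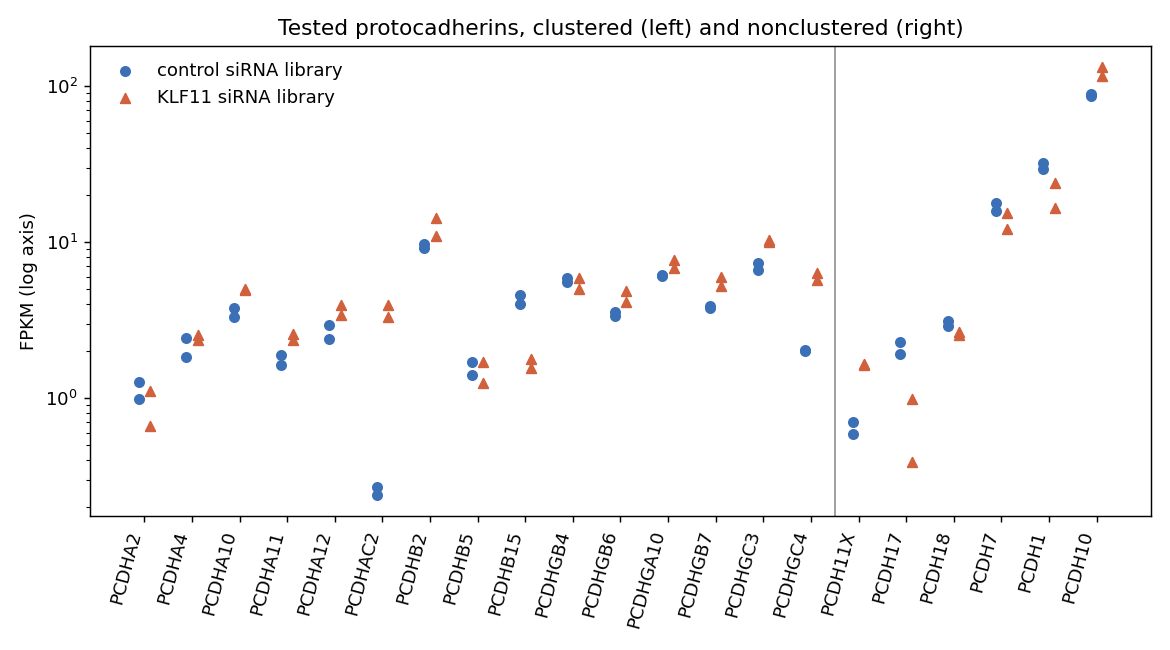
FPKM (log axis) of the 21 protocadherins with a mean of at least 1 FPKM, in each control siRNA library (circles) and each KLF11 siRNA library (triangles), with clustered genes left of the line. PCDHAC2 lies at 0.24 and 0.27 FPKM with control siRNA, against 3.32 and 3.93 FPKM with KLF11 siRNA, and PCDH10 stands above all others.

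Genes with a mean of at least 1 FPKM were tested with limma on log2(FPKM + 1), which understates the change of low genes, and p-values were adjusted over all 15320 genes tested. Of the 63 protocadherins, 21 passed this filter, 15 clustered and 6 nonclustered. PCDHA2, PCDHAC2, PCDH17 and PCDH11X passed it through 1 group only, since the mean of their other group was below 1 FPKM. With KLF11 siRNA 5 of the 21 rose (23.8%, against 13.5% of all genes tested) and 2 fell (9.52%, against 21.7%), so that 33.3% were called against 35.2% of all genes, a share near the background. Among genes whose mean reached 1 FPKM in both groups, a count made after the values were seen, 3 of 17 protocadherins rose and 1 fell, 17.6% and 5.88% beside 12.9% and 20.7% of all such genes. PCDHAC2, PCDHGC3, PCDHGC4, PCDH10 and PCDH11X rose, and PCDHB15 and PCDH17 fell. Among clustered genes 3 of 15 rose and 1 fell, with a median log2 change of 0.32, and among nonclustered genes 2 of 6 rose and 1 fell, with a median of -0.22, beside a median of -0.11 over all genes tested. The difference between clustered and nonclustered genes was not tested. With median-of-ratios scaling, which moved the median of all genes to -0.01, 6 of the 21 rose and 1 fell, and the split over all genes went from 2071 higher and 3329 lower to 2728 and 2664. With control replicate 1 left out, limma called 0 genes of the whole table (1826 higher and 2635 lower at an unadjusted p under 0.05), and 5 protocadherins were higher and 1 lower at that unadjusted p. With control replicate 2 left out it also called 0 genes (1761 higher and 3032 lower unadjusted), with 3 protocadherins higher and 2 lower at that p, so every call named here rests on both control libraries.

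**Figure D3:**
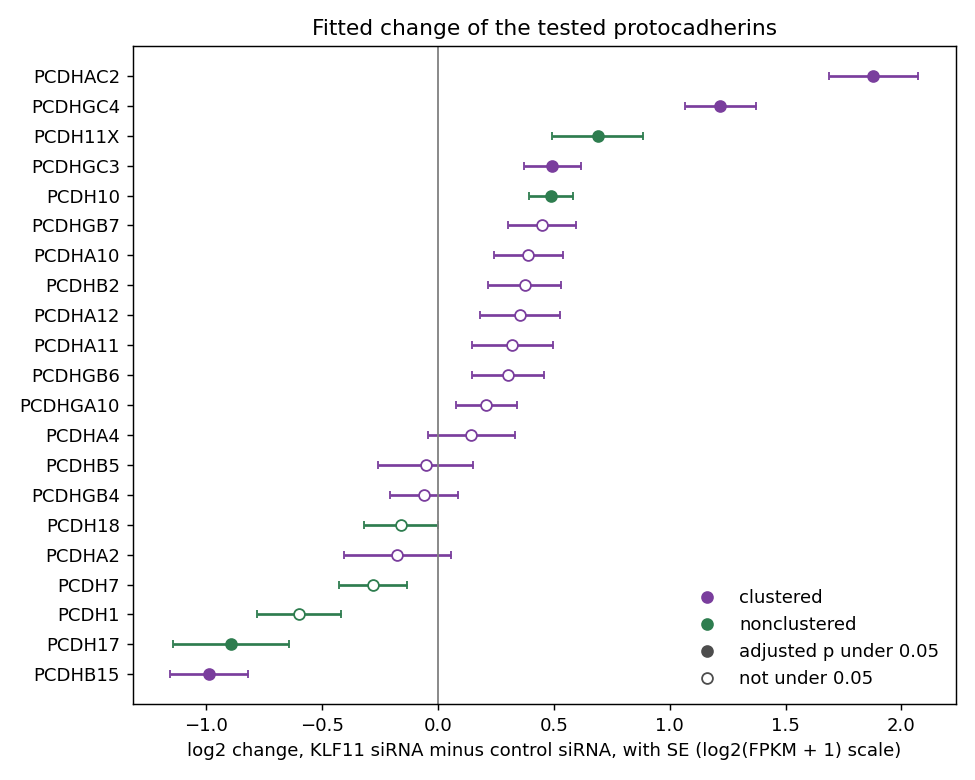
Fitted log2 change (horizontal axis, KLF11 siRNA minus control siRNA on the log2(FPKM + 1) scale, bars show the SE) of the 21 tested protocadherins, filled where the limma adjusted p is under 0.05. The changes run from -0.99 for PCDHB15 to 1.88 for PCDHAC2, and 7 points are filled.

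The C types of the PCDHA array had the largest ratios of KLF11 siRNA to control means among the protocadherins that were not listed at 0 in a whole group. PCDHAC2, the last gene of the array, was at 0.27 and 0.24 FPKM in control libraries and at 3.93 and 3.32 FPKM in KLF11 siRNA libraries. Both KLF11 siRNA libraries lay far above both controls. PCDHAC2 passed the filter only through the KLF11 siRNA group. It rose 14.2-fold, from 0.255 ± 0.0212 to 3.62 ± 0.431 FPKM (SD, n = 2 each), and the fitted log2 change was 1.88 (SE 0.193, limma adjusted p = 0.00467). The adjusted p was 0.0826 or 0.0815 without control replicate 1 or 2 and 0.0674 with no filter, and the fitted log2 change was 3.39 with a pseudocount of 0.1 and 0.71 with one of 5. PCDHAC1, its neighbour, was below the filter, at 0.58 and 0.36 FPKM under control siRNA and 1.65 and 1.25 FPKM under KLF11 siRNA. Its groups did not overlap either, with a ratio of means of 3.09.

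In the PCDHG array the C types were higher as well. PCDHGC4 was at 2 and 2.04 FPKM in control libraries and at 5.69 and 6.38 FPKM in KLF11 siRNA libraries. It rose 2.99-fold, from 2.02 ± 0.0283 to 6.03 ± 0.488 FPKM (SD, n = 2 each; log2 change 1.22, SE 0.153, limma adjusted p = 0.00644), with both KLF11 siRNA libraries above both controls. The adjusted p was 0.0956 or 0.0893 without control replicate 1 or 2, and 0.0703 with no filter. PCDHGC3, the most abundant gene of the array, was at 7.30 and 6.63 FPKM with control siRNA, against 10.1 and 10.3 FPKM with KLF11 siRNA. Its groups did not overlap, and it rose 1.47-fold (log2 change 0.49, SE 0.122, limma adjusted p = 0.0317). That call was lost with any library left out (adjusted p 0.056 to 0.208), with no filter (0.126), with a filter of 0.1 FPKM (0.0515) and with the replicate number as a block (0.0697). PCDHGC5, below the filter, was at 0.13 and 0.18 FPKM under control siRNA and 0.29 and 0.51 FPKM under KLF11 siRNA. In all 5 C types, both KLF11 siRNA libraries thus lay above both controls, where 24.6% of all genes with a mean of at least 0.1 FPKM were.

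The other PCDHA genes went in different directions. Among PCDHA1 to PCDHA9, the genes PCDHA3, PCDHA5, PCDHA6 and PCDHA9 were lower in both KLF11 siRNA libraries than in both controls, and all 4 were below the filter. PCDHA6, for example, was at 0.35 and 0.43 FPKM with control siRNA, against 0.11 and 0.10 FPKM with KLF11 siRNA. PCDHA10, PCDHA11 and PCDHA12, nearer the C types, were higher in both KLF11 siRNA libraries. PCDHA10 was at 3.33 and 3.78 FPKM under control siRNA and 5 and 4.92 FPKM under KLF11 siRNA, without overlap, and did not pass (log2 change 0.39, SE 0.148, limma adjusted p = 0.0942), but it did with quantile normalization (0.0428). PCDHA11 (adjusted p = 0.209, limma) and PCDHA12 (0.166) did not pass either, each with a ratio of means of 1.39 or 1.38. PCDHA2, PCDHA4, PCDHA7, PCDHA8 and PCDHA13 overlapped between the groups. PCDHA1 was at most 0.20 FPKM, with both KLF11 siRNA libraries just above both controls. Of all 15 PCDHA genes, C types included, 40% were higher and 26.7% lower without overlap. At a mean of at least 0.1 FPKM, 24.6% of all genes were higher and 37.9% lower. Summed over PCDHA1 to PCDHA9, a grouping made after the values had been seen, the level was 7.02 and 6.19 FPKM with control siRNA, against 4.78 and 5.76 FPKM with KLF11 siRNA. Over PCDHA10 to PCDHA13 it was 8.18 and 8.64 FPKM against 12.2 and 11.2 FPKM. The first sum was thus lower and the second higher in both KLF11 siRNA libraries, with no test. Since the cut was made after the values had been seen, these directions do not show a pattern along the array.

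**Figure D4:**
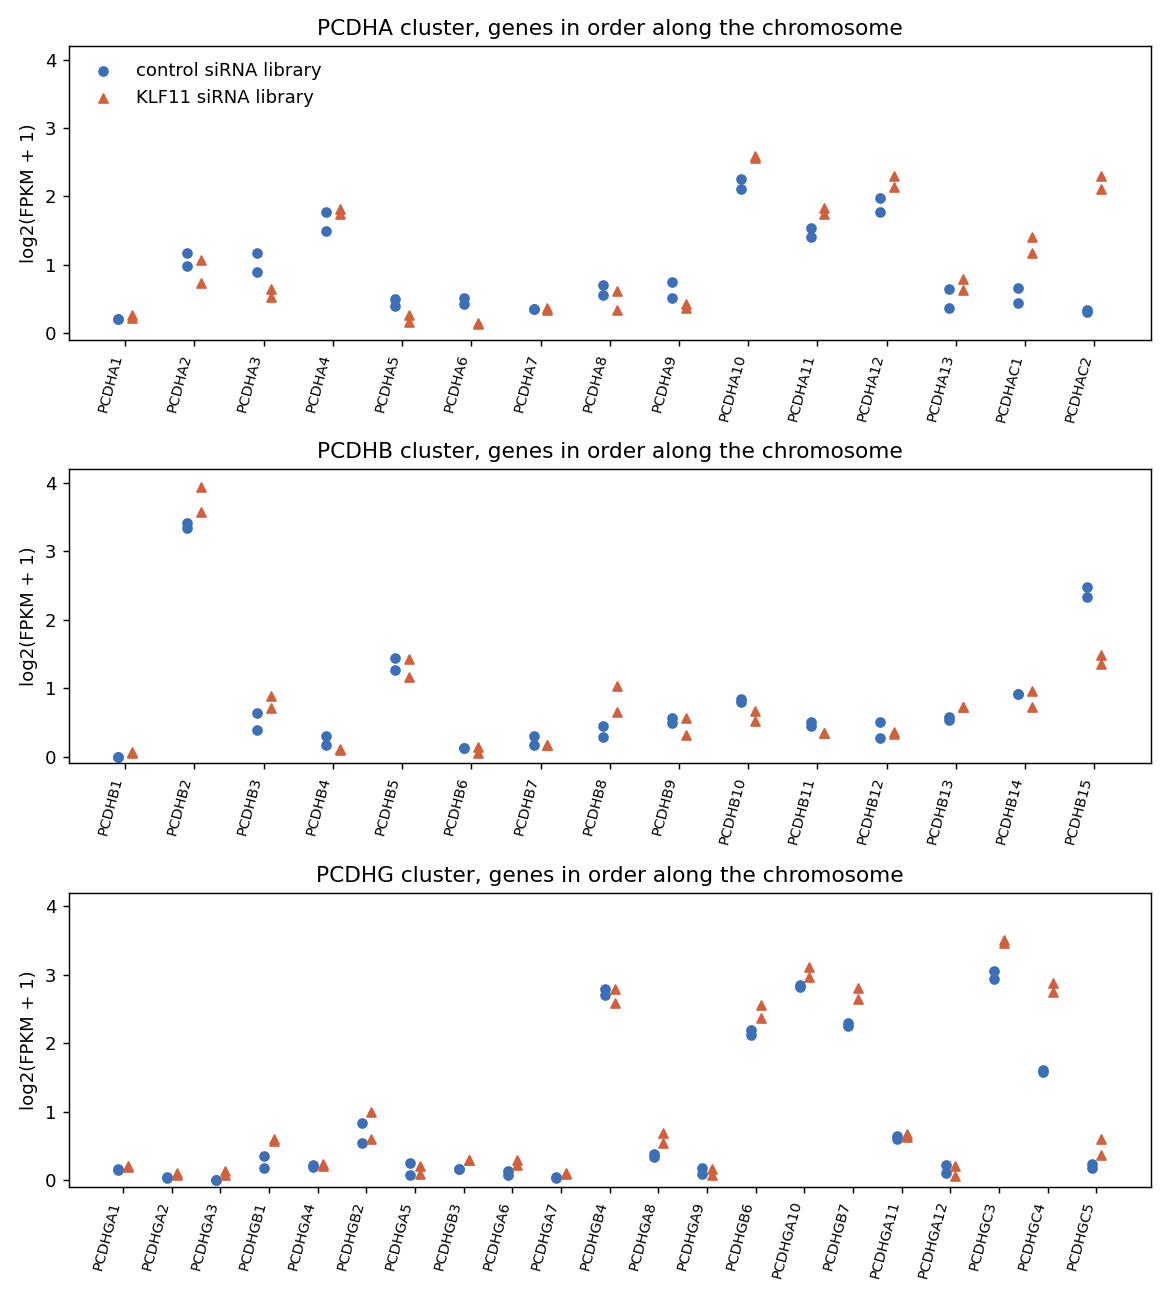
Level of every clustered protocadherin as log2(FPKM + 1) (vertical axis) in each library, with genes in their order along the chromosome from GENCODE 29, circles for control siRNA and triangles for KLF11 siRNA. The C types at the right of the PCDHA and PCDHG panels have both triangles above both circles, while PCDHB15 at the right of the PCDHB panel has both triangles below.

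The whole PCDHA array summed to 16.1 and 15.4 FPKM under control siRNA and 22.6 and 21.6 FPKM under KLF11 siRNA, a ratio of means of 1.40. PCDHAC2 made up 1.68% and 1.56% of that sum in control and 17.4% and 15.4% in KLF11 siRNA libraries. The share of PCDHA10 overlapped between the groups, at 20.7% and 24.5% against 22.1% and 22.8%, whereas that of PCDHA3 went from 7.85% and 5.57% to 1.99% and 2.64%. Without the C types the PCDHA sum was 15.2 and 14.8 FPKM with control siRNA, against 17.0 and 17.0 FPKM with KLF11 siRNA. The C types thus held most of the difference in the PCDHA sum.

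The PCDHG array summed to 31.4 and 30.1 FPKM under control siRNA and 43.1 and 43.0 FPKM under KLF11 siRNA, a ratio of means of 1.40. PCDHGC4 took 6.36% and 6.77% of that sum in control and 13.2% and 14.9% in KLF11 siRNA libraries. The share of PCDHGB4 went the other way, from 18.8% and 18.4% to 11.6% and 13.7%, at nearly the same level (5.91 and 5.54 FPKM in control, 5.02 and 5.90 FPKM with KLF11 siRNA, overlapping groups). Of the 21 PCDHG genes, 14 were higher in both KLF11 siRNA libraries, 0 were lower in both and 7 overlapped. Among the 17 of these genes with a mean of at least 0.1 FPKM, 11 were higher without overlap and 0 lower, where 24.6% and 37.9% of all genes at that level were. PCDHGB7 was at 3.76 and 3.92 FPKM with control siRNA, against 5.98 and 5.25 FPKM with KLF11 siRNA. It did not pass (log2 change 0.45, limma adjusted p = 0.0654), though it did with median-of-ratios scaling (0.0413), with quantile normalization (0.0323) and without a variance trend (0.0483). PCDHGB6 (adjusted p = 0.189, limma) and PCDHGA10 (0.268) were higher without overlap and did not pass. PCDHGA3 was listed at 0 with control siRNA in both libraries and stood at 0.05 and 0.09 FPKM in KLF11 siRNA libraries.

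Reads from the PCDHA and PCDHG arrays are partly shared between genes. In GENCODE 29, 47.7% to 68.9% of the 50-base windows of a PCDHA gene's principal transcript also occurred in another protocadherin, with 45.3% to 55.3% for PCDHG genes and 0% to 44.5% for PCDHB genes. RSEM divides such reads by estimation, so the level of a single gene in these arrays is less certain than the sum of its array. Among nonclustered genes sharing was found only between PCDH11X and PCDH11Y, at 57.3% and 58.5% of windows.

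**Figure D5:**
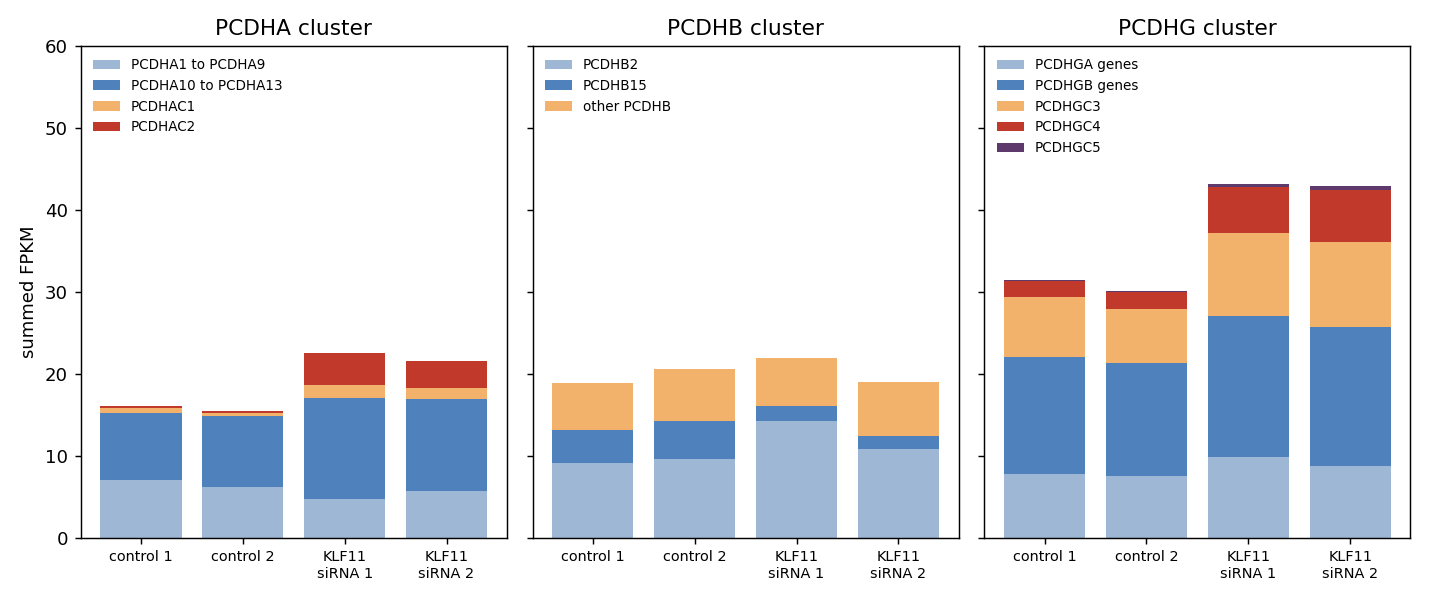
Summed FPKM (vertical axis, from 0) of the PCDHA, PCDHB and PCDHG arrays in each of the 4 libraries, divided by gene or gene group. PCDHAC2 and PCDHGC4 widen in the KLF11 siRNA libraries, and the PCDHB sum overlaps between the groups while PCDHB15 narrows.

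The PCDHB array had overlapping sums, at 18.9 and 20.6 FPKM under control siRNA and 21.9 and 19.0 FPKM under KLF11 siRNA, and its members differed in direction. PCDHB15, the last gene of the array, was at 4.02 and 4.57 FPKM in control libraries and at 1.79 and 1.55 FPKM in KLF11 siRNA libraries. Both KLF11 siRNA libraries were below both controls, and PCDHB15 fell from 4.29 ± 0.389 to 1.67 ± 0.17 FPKM (SD, n = 2 each), a 2.57-fold drop (log2 change -0.99, SE 0.169, limma adjusted p = 0.0127). The adjusted p was 0.109 or 0.118 without control replicate 1 or 2, and 0.105 with no filter. PCDHB2, the most abundant clustered gene, was at 9.15 and 9.67 FPKM with control siRNA, against 14.3 and 10.9 FPKM with KLF11 siRNA. Its groups did not overlap and it did not pass (log2 change 0.37, SE 0.157, limma adjusted p = 0.121), but it did without KLF11 siRNA replicate 2 (0.0288). PCDHB2 and PCDHB15 were thus on opposite sides of their controls. Their shares of the array went from 48.5% and 47.0% to 65.2% and 57.3% for PCDHB2 and from 21.3% and 22.2% to 8.16% and 8.15% for PCDHB15. PCDHB5 overlapped (1.41 and 1.71 FPKM in control, 1.25 and 1.70 FPKM with KLF11 siRNA). Of all 15 PCDHB genes 5 were higher and 5 lower in both KLF11 siRNA libraries, and 5 overlapped. Of the 13 with a mean of at least 0.1 FPKM 30.8% were higher and 38.5% lower, close to the 24.6% and 37.9% of all genes at that level.

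Among the nonclustered delta 2 genes, PCDH10, on chromosome 4, encodes a protein that binds the NCKAP1 subunit of the actin-regulating WAVE complex. It was at 89.0 and 86.9 FPKM in control libraries and at 132 and 116 FPKM in KLF11 siRNA libraries. The groups did not overlap, and PCDH10 rose 1.41-fold, from 87.9 ± 1.47 to 124 ± 11.7 FPKM (SD, n = 2 each; log2 change 0.49, SE 0.0965, limma adjusted p = 0.0181). The adjusted p was 0.132 or 0.133 without control replicate 1 or 2, and 0.173 with no filter. PCDH17, on chromosome 13, was at 2.28 and 1.91 FPKM under control siRNA and 0.99 and 0.39 FPKM under KLF11 siRNA. Its 2 KLF11 siRNA libraries were both below the controls and far apart from each other, and it passed the filter only through the control group. PCDH17 fell 3.04-fold (log2 change -0.89, SE 0.252, limma adjusted p = 0.0448), a call lost with a pseudocount of 0.1 (0.0664), a filter of 0.1 FPKM (0.0651) or none (0.287), median-of-ratios scaling (0.0549), quantile normalization (0.101), the replicate block (0.052) and without control replicate 1 (0.211), control replicate 2 (0.152) or KLF11 siRNA replicate 2 (0.0708). PCDH18 was at 2.88 and 3.13 FPKM under control siRNA and 2.53 and 2.64 FPKM under KLF11 siRNA (limma adjusted p = 0.472). PCDH8, a low gene, was at 0.15 and 0.18 FPKM in control, listed at 0 in KLF11 siRNA replicate 1 and at 0.02 FPKM in replicate 2. PCDH19 was at most 0.40 FPKM and overlapped.

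Among the delta 1 genes, PCDH1, whose protein is known from epithelial adhesion, encoded on chromosome 5 outside the arrays, was at 32.1 and 29.4 FPKM in control libraries and at 16.6 and 23.9 FPKM in KLF11 siRNA libraries. Both KLF11 siRNA libraries were below both controls, yet they differed more from each other than the controls did. PCDH1 did not pass (log2 change -0.60, SE 0.181, limma adjusted p = 0.0536), but did with a pseudocount of 5 (0.0486), a filter of 5 FPKM (0.0442), TPM scaling (0.039) and without KLF11 siRNA replicate 2 (0.00905). The 10 epithelial markers had the same order of libraries, since their sum in KLF11 siRNA replicate 1 (760.2 FPKM) was below that in replicate 2 (1039 FPKM) and both were below the controls. The early endoderm and neural sums had that order too, as had PCDH7, EVL and CELSR1, so it was not particular to epithelial genes. The neural order was that of TUBB3 (79.4 and 95.2 FPKM in KLF11 siRNA replicates 1 and 2). Other neural markers went both ways. STMN2 (3.79 and 1.26 FPKM) and PAX6 (2.54 and 1.63 FPKM) were higher in replicate 1, SOX10 (0.65 and 0.89 FPKM) in replicate 2. The part of those markers in the PCDH1 values was not tested. PCDH7, on chromosome 4, was at 17.9 and 15.8 FPKM with control siRNA, against 12.2 and 15.4 FPKM with KLF11 siRNA (limma adjusted p = 0.193). PCDH11X, on the X chromosome, was at 0.70 and 0.59 FPKM under control siRNA and 1.66 and 1.64 FPKM under KLF11 siRNA, without overlap. PCDH11X, which passed the filter only through the KLF11 siRNA group, rose 2.56-fold (log2 change 0.69, SE 0.195, limma adjusted p = 0.0454). That call was lost with any library left out (0.0661 to 0.163), with a pseudocount of 0.1 (0.061), no filter (0.148), TPM scaling (0.0528) and the replicate block (0.0903). PCDH11Y, with which it shares sequence, was below the filter and overlapped between the groups. PCDH9 was at most 0.72 FPKM, and PCDH12 and PCDH15, outside the delta groups, were at most 0.23 and 0.17 FPKM, and all 3 overlapped between the groups.

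Below the filter, 36 clustered genes had means of 0.0225 to 0.96 FPKM and 6 nonclustered genes were below it as well. Of the 36, 15 were higher and 8 lower in both KLF11 siRNA libraries and 13 overlapped. Of the 6, 0 were higher, 1 was lower and 5 overlapped. Over the tested and untested genes with a mean of at least 0.1 FPKM, 46.7% of 45 clustered genes were higher and 20% lower, and 18.2% of 11 nonclustered genes were higher and 36.4% lower, beside 24.6% and 37.9% of all genes at that level. The 8 untested genes with the highest means were PCDHAC1 (0.96 FPKM), PCDHB14 (0.843 FPKM), PCDHA3 (0.785 FPKM), PCDH11Y, PCDHGB2 (0.69 FPKM), PCDHB10 (0.64 FPKM), PCDHB3 (0.585 FPKM) and PCDHB13 (0.562 FPKM). PCDHB14 was at 0.89 and 0.88 FPKM with control siRNA, against 0.94 and 0.66 FPKM with KLF11 siRNA, and PCDHGB2 at 0.79 and 0.46 against 0.52 and 0.99 FPKM. Both overlapped. The genes just inside the filter of 1 FPKM were PCDHA2 (mean 1.0025 FPKM) and PCDH11X (1.15 FPKM), and the one just outside was PCDHAC1.

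Lists of loop, DNA methylation and silencing factors, some of them known to act on clustered protocadherin promoters, were measured in the same fit. Their counts are read beside 13.5% of all genes tested that rose and 21.7% that fell. CTCF, the insulator protein that joins promoters to the arrays' enhancers, was at 25.8 and 25.5 FPKM with control siRNA, against 29.2 and 26.9 FPKM with KLF11 siRNA, and did not pass (limma adjusted p = 0.352). Of 14 tested CTCF, cohesin and loop factors 1 rose and 0 fell. With median-of-ratios scaling 2 of them rose and 0 fell, with a median log2 change of 0.17. That scaling gave 17.8% of all genes higher and 17.4% lower. Without that scaling the gene that rose was the cohesin subunit STAG2, from 25.6 and 29.8 to 43.5 and 39.8 FPKM (log2 change 0.57, limma adjusted p = 0.0179). The smallest p-values after it belonged to SMC1A (adjusted p = 0.115, limma), STAG1 (0.149) and YY1 (0.189). The median log2 change of this list was 0.06, and without KLF11 siRNA replicate 1 none of its genes passed (1 at an unadjusted p under 0.05, limma). Among factors of DNA methylation and silencing 3 of 11 rose and 1 fell, with a median of -0.04 that was 0.07 with median-of-ratios scaling, and without KLF11 siRNA replicate 1 the number that rose was 1. The methyltransferase DNMT3B rose from 72.4 and 66.4 to 144 and 123 FPKM (adjusted p = 0.00559, limma), DNMT3A from 47.5 and 44.5 to 69.6 and 60.7 FPKM (0.0211) and DNMT1 from 37.6 and 40.3 to 50.1 and 47.7 FPKM (0.0426). TET1, which oxidises methylated cytosine, fell from 14.3 and 14.4 to 10.4 and 9.96 FPKM (adjusted p = 0.0278, limma). With median-of-ratios scaling, quantile normalization or the replicate block, 0 genes of this list fell. The number that rose was 2 with the block, TPM scaling, a filter of 0.1 FPKM or no variance trend. SMCHD1, a known repressor of the clustered genes, was at 18.3 and 18.7 FPKM under control siRNA and 19.9 and 19.8 FPKM under KLF11 siRNA (adjusted p = 0.464, limma). DNA methylation itself was not analysed here.

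Partners of the proteins were also read from lists. In the WAVE complex and actin list 3 of 12 rose and 5 fell (median -0.20), but 1 fell without KLF11 siRNA replicate 1, and 3 with the replicate block or median-of-ratios scaling. CYFIP2 rose from 7.06 and 5.90 to 24.4 and 19.0 FPKM (adjusted p = 0.00475, limma), NCKAP1 from 59.6 and 65.7 to 92.2 and 86.2 FPKM (0.0151) and RAC1 from 177 and 172 to 237 and 231 FPKM (0.0151). EVL fell from 63.2 and 54.1 to 27.7 and 36.6 FPKM (adjusted p = 0.0156, limma), and VASP, WASF2, WASF3 and ENAH fell too. Among kinases and signalling partners 2 of 11 rose and 4 fell (median -0.13), with 1 and 2 without KLF11 siRNA replicate 1. RET, a receptor kinase that binds clustered protocadherins, rose from 3.53 and 3.18 to 17.4 and 16.2 FPKM (adjusted p = 0.00235, limma). FYN rose as well, while SRC (0.0083), TAOK2 (0.0153), PTK2B (0.0301) and PRKCD (0.035) fell. These lists are read beside 13.5% of all tested genes higher and 21.7% lower.

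Of the related giant cadherins, 4 of 5 tested FAT and Dachsous pathway genes rose and 0 fell. Over all genes tested 13.5% rose and 21.7% fell, which also stands beside the CDHR, CDH23 and CELSR counts below. The median log2 change of the FAT and Dachsous genes was 1.15. FAT4, whose change is that median, passed the filter only through the KLF11 siRNA group. FAT3 rose from 4.36 and 3.84 to 14.2 and 11.8 FPKM (adjusted p = 0.00467, limma), FJX1, a kinase-like Golgi protein, from 2.89 and 2.33 to 7.96 and 7.31 FPKM (0.00638), FAT4 from 0.74 and 0.59 to 2.66 and 2.73 FPKM (0.0112) and FAT1 from 19.2 and 15.0 to 34.4 and 28.2 FPKM (0.017). DCHS1, at 6.67 and 6.02 FPKM with control siRNA, against 5.48 and 5.51 FPKM with KLF11 siRNA, did not pass (0.348). Of 5 tested CDHR, CDH23 and CELSR genes 0 rose and 1 fell, with a median of -0.65, and without KLF11 siRNA replicate 2 the number that fell was 4, with TPM scaling 3 and with a pseudocount of 5 it was 2. CELSR1 fell from 8.19 and 7.62 to 3.43 and 4.40 FPKM (adjusted p = 0.0152, limma), and CELSR3 (0.0511), CELSR2 (0.0604) and CDH23 (0.0659) did not pass. CYFIP1, MARCKS, UHRF1 and LHX1 were not analysed here.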

How the data were processed

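The deposited FPKM values, written by the authors with 2 decimals, were made with Trim Galore 0.5.0, RSEM 1.3.1 and build hg19 (GRCh37), per the submitters' processing notes. The aligner, annotation release, strand setting and filters were not stated in the sources used here. Columns were matched to samples by name, with 0 columns unmatched. Low values of small RNA genes gave no common step between libraries (the commonest ratio to control replicate 1 held 9 to 12 of 100 to 107 genes), so depth stays unknown.

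Gene types, array order and shared 50-base windows came from GENCODE 29 and start-site windows from RefSeq, both on GRCh38, whose coordinates are not those of the table's build. One window per gene was used, that of the most upstream start. On log2(FPKM + 1), limma 3.58.1 (R 4.3.3; lmFit and trended eBayes) tested the genes whose mean FPKM was 1 or more. Benjamini-Hochberg adjusted p-values under 0.05 were called. The alternatives were other pseudocounts, filters, scalings and variance settings, a replicate block and leaving out each library. Named genes were KLF11, every tested protocadherin, the 8 highest untested ones and those whose groups differed most, and up to 4 members of each list with the smallest p. Further list members were named after their values were seen. The protocadherins, lists and groupings were chosen with earlier results of these data known. One effector list is not reported here. Figures used matplotlib 3.10.9.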

Additional observations from a re-analysis of the deposited data

How the results depend on the processing

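Calls were limited by 2 libraries a group and by low levels. Over the tested protocadherins, 184 of 217 fits with all libraries kept direction and side of the threshold. Most of these fits were of genes not called either way. In 17 of the 217 a called gene lost its call, and in 10 an uncalled gene passed. With 1 library left out, calls were lost more often than kept. All cases that changed sign concerned genes that never passed: PCDHB5 (log2 change 0.0186 with median-of-ratios scaling, 0.135 with quantile normalization, and -0.184 to 0.0793 with 1 library left out), PCDHGB4 (0.0405, 0.0996 and -0.159 to 0.0376), PCDH18 (0.0296 with quantile normalization) and PCDHA2 (0.0206 with it). The cause of the changes below was not tested beyond what each setting does by construction.

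With no filter, 189 genes were higher and 201 lower in limma among 57905, with 0 protocadherins in either direction (13 higher and 3 lower at an unadjusted p under 0.05), clustered or not, and 1 higher and 0 lower in the regulator and effector lists. With a filter of 5 FPKM, which left 7 protocadherins, 2 were higher and 1 lower, with 1 higher and 0 lower of 4 clustered genes and 1 higher among nonclustered genes. Of all genes at that filter 16.3% were higher and 24.5% lower. With a filter of 0.1 FPKM, at which 11.3% of all genes were lower, 1 protocadherin was lower and 0 nonclustered. With a pseudocount of 0.1, 1 protocadherin was lower, and 1 nonclustered gene was higher and 0 lower, beside 13.2% of all genes higher and 20.7% lower. With a pseudocount of 5, 2 nonclustered genes were lower, beside 22.3% of all genes. With TPM scaling 1 nonclustered gene was higher and 2 lower. With median-of-ratios scaling and with quantile normalization 1 protocadherin was lower, 0 of them nonclustered, and quantile normalization gave 5 clustered genes higher. The median log2 change of all genes was -0.16 with TPM scaling and 0.01 with quantile normalization, with 1819 genes higher and 3699 lower under the former (4 and 3 protocadherins) and 2657 higher and 2664 lower under the latter (7 and 1). At an adjusted p of 0.1, 5 of 15 clustered genes were higher and 2 of 6 nonclustered lower (33.3% each). Of all genes 18.1% were higher and 29.3% lower at that threshold.

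The replicate numbers are not known to pair the libraries (correlation of the deviations of same-numbered libraries -0.0711 across genes). With the replicate block 3 protocadherins were higher and 1 lower, with 1 nonclustered gene higher and 0 lower, and over all genes 1707 were higher and 2644 lower.

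With 1 library left out, a fit in which the lone library is assumed to vary like the remaining pair, genes higher ranged from 0 to 2291 and lower from 0 to 3813, protocadherins higher from 0 to 4 and lower from 0 to 2, clustered higher from 0 to 3 and lower from 0 to 1, nonclustered higher from 0 to 1 and lower from 0 to 1, and listed regulators and effectors higher from 0 to 11 and lower from 0 to 18. The zeros came without either control library, when the spread rests on the KLF11 siRNA pair.

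The ratio of summed FPKM for PCDHA was 1.52 with median-of-ratios scaling, against 1.40. That for PCDHG was 1.36 with TPM scaling, 1.52 with median-of-ratios scaling and 1.37 to 1.43 with 1 library left out. That for the C types together, 2.20, was 2.14, 2.39 and 2.11 to 2.30. That for PCDHB, 1.04, was 0.964 to 1.11 with 1 library left out.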
